A study of Mus musculus with 8 samples.

Results

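Heat shock chaperones are described here through 10 genes of the count table, chosen by symbol and found as 10 of its 26586 rows. They are the inducible genes Hspa1a, Hspa1b, Dnajb1, Hsph1, Hspb1 and Hsp90aa1, the constitutive genes Hspa8 and Hsp90ab1, and the mitochondrial chaperonin genes Hspd1 and Hspe1. The samples were primordial follicles from ovaries of postnatal day 3 mice on a mixed C57Bl/6 and CBA background. The mito-supplemented group (n = 4) came from the third generation descended from founders grown from oocytes that had received extra mitochondria during sperm injection. The extra mitochondria were taken from egg precursor cells. The control group (n = 4) came from control mice. The paper names colony mice as controls for litter size and follicle counts but does not repeat this for the sequenced samples. Follicles were freed from ovary pieces by warm enzymatic digestion and picked, and their RNA was amplified isothermally before sequencing. The labels do not say whether samples of a group came from separate litters. They carry codes that controls 1 and 2 share, controls 3 and 4 share and mito-supplemented replicates 1 to 3 share, without saying what a code marks, and the p-values measure the spread between these samples. The question was how the inducible genes stood against the constitutive ones in each library, and whether either differed between the groups.

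Chaperones bind unfolded proteins and help them to fold, using cycles of ATP binding in the HSP70 and HSP90 families. Under heat or other protein damage, heat shock factor 1 is released from chaperones, forms trimers and binds repeated elements in promoters, which raises transcription of the inducible genes within minutes, while the constitutive genes serve folding in unstressed cells. Growing oocytes are rich in HSP90.

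Libraries held from 10370045 counts in control replicate 4 to 19760763 counts in mito-supplemented replicate 1. Ribosomal RNA genes took 75.3% of counts in control replicate 4 and between 20.1% and 45.6% in the other 7 libraries, so that replicate had only 2559876 counts outside them. Levels are given as CPM, which are counts scaled to a common library size, with TMM factors that correct for differences in library composition. Of 12 oocyte markers, 10 had counts in every library, and their summed level was 1894 CPM in control replicate 1 against 75.4 to 438 CPM elsewhere, with Kit the most abundant. Fitted values of the 10 oocyte markers tested were all negative for the mito-supplemented group against control, with a median log2 fold change of -1.72, whereas 3 were negative without control replicate 1, with a median of 0.27. Pregranulosa markers were also present, with 6 of 8 detected in every library and Wt1 the most abundant. Red cell markers set 3 libraries apart: they summed to 5054 CPM in control replicate 2, 3466 CPM in control replicate 3 and 5463 CPM in mito-supplemented replicate 1, against 15.1 to 87.0 CPM in the other 5. Leukocyte markers, with Lyz2 the most abundant, set the same 3 apart, with sums of 132, 115 and 748 CPM against 8.69 to 21.3 CPM in the other 5. Both the oocyte and the red cell markers therefore differed widely within the control group.

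Per kilobase of annotated exon, the levels of the 10 genes spanned a wide range. Hsp90ab1, the constitutive cytosolic HSP90, had the highest median over the 8 libraries at 727 CPM per kilobase, followed by its inducible partner Hsp90aa1 at 146 and by Hspa8, the constitutive HSP70, at 69.6, and the libraries of these 3 genes did not overlap. Hspd1 at 52.3 CPM per kilobase overlapped with Hspa8 between libraries. Hsph1 at 19.2, Hspe1 at 16.2 and Dnajb1 at 14.5 CPM per kilobase did not differ from each other beyond their spread. The lowest medians were those of Hspb1 at 4.92, Hspa1b at 3.38 and Hspa1a at 3.09 CPM per kilobase, and these 3 overlapped as well.

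**Figure D1:**
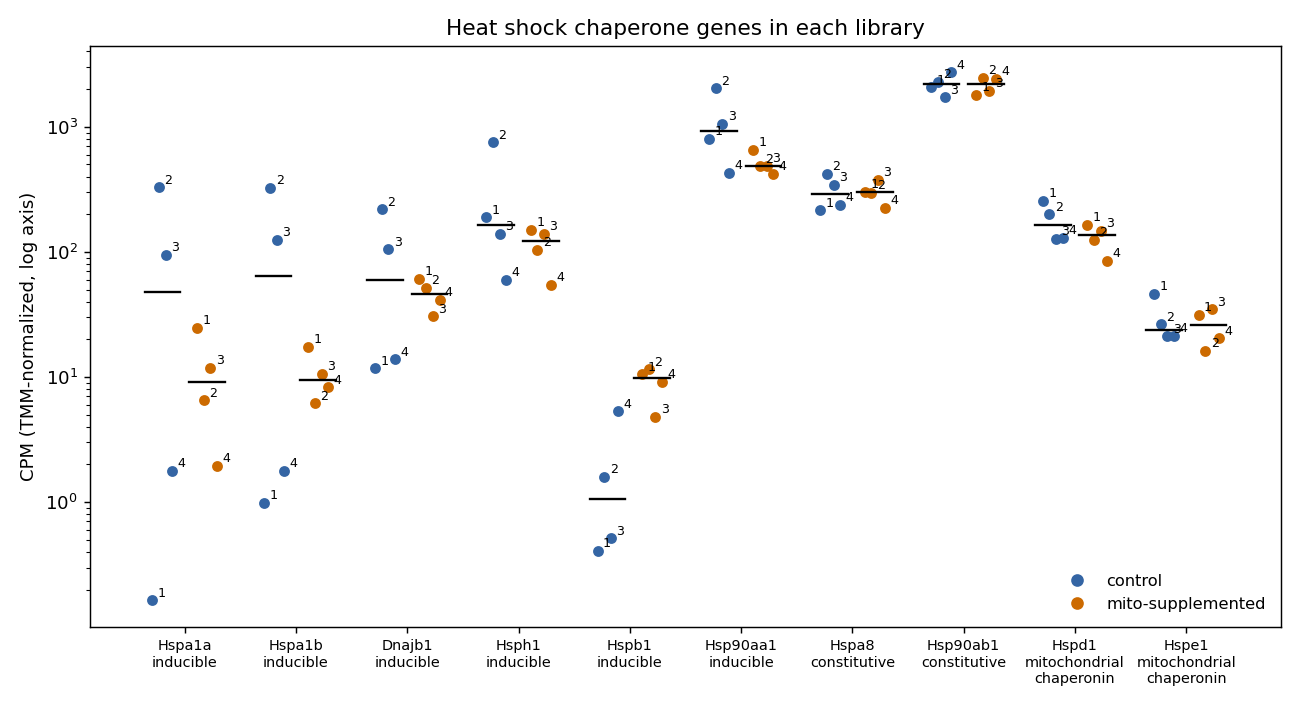
CPM of each chaperone gene (log axis) in the 4 control (blue) and 4 mito-supplemented (orange) libraries, with the replicate number beside each point and the group median as a bar. Hspa1a and Hspa1b span from below 1 CPM to above 300 CPM among the control libraries, whereas Hspa8 and Hsp90ab1 stay within a narrow band in both groups.

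Hspa1a and Hspa1b encode the main stress-inducible HSP70 proteins, which are nearly identical in sequence. Both are genes without introns on chromosome 17 of GRCm38, Hspa1a at chr17:34969190-34972156 and Hspa1b at chr17:34956436-34959238, on the minus strand. Their promoters are shown because the pair moved together across libraries and because the copies are so alike. The sequences are from a set of RefSeq promoter windows (GRCm38.p6) of 300 bases around the start. The set used here held windows for 7 of the 10 genes but not for Hspa8, Hsp90aa1 and Hsp90ab1, whose promoters were not searched. Each line below gives the 250 bases before the start, 5′ to 3′, for Hspa1a at chr17:34972157-34972406, Hspa1b at chr17:34959239-34959488 (both minus strand) and Hspb1 at chr5:135887669-135887918 (plus strand), and capitals mark matches to the core of the heat shock element, GAANNTTC or TTCNNGAA.
Hspa1a: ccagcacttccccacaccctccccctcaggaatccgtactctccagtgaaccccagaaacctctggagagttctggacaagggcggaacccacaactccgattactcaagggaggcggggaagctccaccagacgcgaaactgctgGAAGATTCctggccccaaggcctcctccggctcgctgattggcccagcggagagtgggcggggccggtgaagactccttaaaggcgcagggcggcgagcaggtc
Hspa1b: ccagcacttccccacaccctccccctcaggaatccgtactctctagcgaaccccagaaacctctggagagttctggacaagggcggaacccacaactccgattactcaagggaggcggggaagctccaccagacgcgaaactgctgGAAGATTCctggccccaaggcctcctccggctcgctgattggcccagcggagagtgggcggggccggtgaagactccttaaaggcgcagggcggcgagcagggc
Hspb1: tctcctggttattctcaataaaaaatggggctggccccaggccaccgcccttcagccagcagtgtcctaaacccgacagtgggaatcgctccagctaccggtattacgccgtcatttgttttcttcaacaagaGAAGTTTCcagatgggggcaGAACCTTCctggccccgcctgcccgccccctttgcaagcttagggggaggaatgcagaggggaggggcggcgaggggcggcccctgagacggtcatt

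Over the 250 bases, the Hspa1a and Hspa1b windows differed at 3 positions, C44T, T47C and T249G, counted from 1 at the 5′ end with the Hspa1a base first, and both held GAAGATTC starting 104 bases before the start. Hspb1 held 2 matches, 117 and 97 bases before its start. GAANNTTC and TTCNNGAA each equal their own reverse complement, so that a search of 1 strand covers both, and the motifs overlap where units alternate. Over all 32851 promoter windows, 7.86% held GAANNTTC, 8.52% held TTCNNGAA and 15.1% held either, compared with 5 of the 7 member windows. These 5 include the near-identical windows of Hspa1a and Hspa1b, whose shared match is not a separate observation in each. Hsph1 and Hspe1 held at least 3 alternating units, found in 0.603% of all windows, and no match lay in the windows of Dnajb1 and Hspd1. The units of Hsph1 lay after its RefSeq start. The 30 bases around its other match, which lies before that start but within the first exon of the GENCODE annotation, whose start is 40 bases further upstream (chr5:149636351-149636380, minus strand) and the 30 bases around the Hspe1 repeat (chr1:55088053-55088082, plus strand) are given next, the latter because its matches overlap, in a stretch that also lies within an annotated exon of Hspd1 on the other strand.
Hsph1: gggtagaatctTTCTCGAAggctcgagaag
Hspe1: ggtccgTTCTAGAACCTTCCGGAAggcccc

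Hspa1a stood at 0.164, 328, 94.5 and 1.78 CPM over controls 1 to 4, and at 24.8, 6.51, 11.8 and 1.95 CPM over mito-supplemented libraries 1 to 4. Hspa1b stood at 0.985, 326, 126 and 1.78 CPM over the same controls and at 17.4, 6.16, 10.7 and 8.27 CPM in the mito-supplemented ones. In both genes control replicates 2 and 3 lay above every mito-supplemented library and control replicates 1 and 4 below every one, so the control values enclosed those of the other group. Among controls, Hspa1b differed 331-fold between its lowest library, with 24 counts, and its highest, with 4112 counts, and Hspa1a, with 4 counts in its lowest library, 1999-fold. In the mito-supplemented group Hspa1b differed 2.83-fold and Hspa1a 12.7-fold.

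Between libraries the standard deviation of log2 CPM placed Hspa1a above 99.5% and Hspa1b above 98.7% of the 13873 genes tested, a ranking that was not adjusted for expression level. The fitted change in the mito-supplemented group against control was a log2 fold change of -3.23 (SE 1.63, adjusted p = 0.666 by edgeR's quasi-likelihood test) for Hspa1a and -3.42 (SE 1.43, adjusted p = 0.636 by the same test) for Hspa1b. Their 95% intervals ran from -6.86 to 0.40 for Hspa1a and from -6.59 to -0.24 for Hspa1b, without adjustment for the number of genes. Without control replicate 2 the values moved to -1.52 for Hspa1a and -2.02 for Hspa1b. Of the distinct stretches of 75 bases, the read length, in Hspa1a transcripts, 61.7% also occurred in a transcript of another gene, and for Hspa1b 55.8% did, with 1524 stretches common to the pair. The split of reads between these genes is therefore uncertain, and 564 exonic bases of Hspa1a also belong to the annotated gene Gm20481. Summed over the pair, the level was 1.15, 654, 220.1 and 3.55 CPM in the controls and 42.2, 12.7, 22.5 and 10.2 CPM in the mito-supplemented libraries, with a log2 fold change of -3.33 (SE 1.5, edgeR quasi-likelihood adjusted p = 0.648).

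Dnajb1, the J protein that delivers substrates to inducible HSP70, stood at 11.8, 219, 105 and 13.8 CPM over controls 1 to 4 and at 60.9, 51.4, 30.5 and 41.2 CPM over mito-supplemented libraries 1 to 4. As for the Hspa1 pair, control replicates 2 and 3 were higher and control replicates 1 and 4 lower than the whole mito-supplemented group. The log2 fold change was -0.93 (SE 0.82, edgeR quasi-likelihood adjusted p = 0.766), and it was 0.0715 without control replicate 2. Hsph1, a member of the HSP110 family that exchanges nucleotide on HSP70, stood at 189, 753, 140.1 and 59.6 CPM in the controls and at 150.5, 103, 139 and 54.5 CPM in the mito-supplemented libraries. Control replicate 2 was far above the rest, control replicate 1 was somewhat above the mito-supplemented group, and the other controls lay within it. Its log2 fold change was -1.35 (SE 0.70, edgeR quasi-likelihood adjusted p = 0.667) and -0.21 without that library.

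Hsp90aa1, the inducible HSP90 of the cytosol, was the most abundant inducible gene. It stood at 802, 2035, 1052 and 429.5 CPM over controls 1 to 4 and at 658, 484, 486 and 419 CPM over mito-supplemented libraries 1 to 4. Control replicates 1, 2 and 3 were above every mito-supplemented library, and control replicate 4 lay within that group. The log2 fold change of -1.08 (SE 0.46) had an adjusted p of 0.636 in edgeR's quasi-likelihood test and moved to -0.57 without control replicate 2. For this gene 42.8% of the stretches of 75 bases were shared, mostly with the annotated gene Gm12346.

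Hspb1, a small heat shock protein that holds unfolded proteins and binds actin filaments, was the 1 member with a higher fitted level in the mito-supplemented group. It had 10, 20, 9 and 27 counts over controls 1 to 4, or 0.41, 1.59, 0.515 and 5.33 CPM, and 217, 166, 106 and 132 counts over mito-supplemented libraries 1 to 4, or 10.5, 11.5, 4.81 and 9.18 CPM. Counts did not overlap between the groups, whereas on the CPM scale control replicate 4, the library with the most ribosomal RNA, was above mito-supplemented replicate 3. The log2 fold change was 2.25 (SE 0.89, edgeR quasi-likelihood adjusted p = 0.626) and ranged from 1.92 to 3.45 when single libraries were left out, the highest value being that without control replicate 4. Of its 75-base stretches, 46.4% also occurred in another gene, chiefly the pseudogene Hsp25-ps1.

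Surface epithelium markers were also lowest in controls 1 to 3. All 8 of them were detected in every library, and their sum was 214, 185.5, 192 and 638.5 CPM over controls 1 to 4 and 526, 1139, 660.4 and 773 CPM over mito-supplemented libraries 1 to 4, with Aldh1a1 the most abundant. Control replicate 4 lay within the range of the mito-supplemented group. Pregranulosa markers summed to 197, 125, 201 and 642 CPM over controls 1 to 4 and to 353, 877, 527 and 952 CPM over mito-supplemented libraries 1 to 4, and endothelial markers to 25.7, 27.7, 42.9 and 212 CPM against 94.9, 226, 179.6 and 201 CPM, so that the split of controls 1 to 3 from the other 5 libraries was common to several cell types. Stroma markers split in the same way. They summed to 336, 448, 649 and 2199 CPM over controls 1 to 4 and to 949, 978, 2480 and 2182 CPM over mito-supplemented libraries 1 to 4. The order within the 5 was not shared, since mito-supplemented replicate 1 had the lowest sums of its group for these lists but the second highest Hspb1 level of all libraries. In these bulk samples more cells of a type and more RNA per cell cannot be told apart, and the part of these cell types in the Hspb1 values was not tested.

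**Figure D2:**
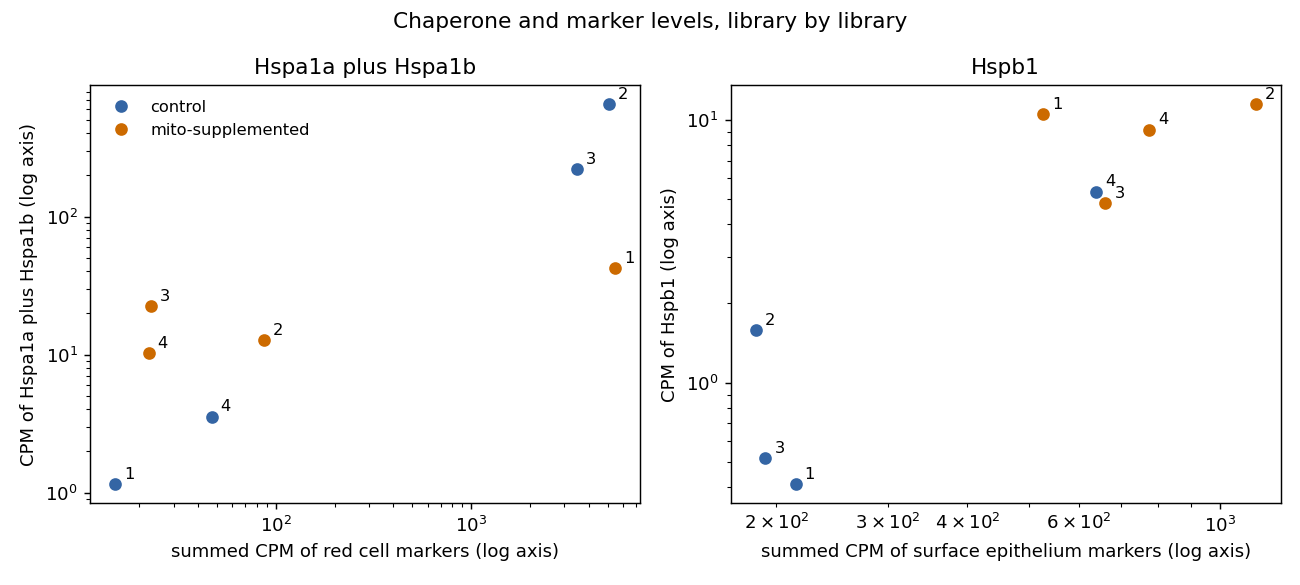
Left, CPM of Hspa1a plus Hspa1b against the summed CPM of red cell markers; right, CPM of Hspb1 against the summed CPM of surface epithelium markers, all on log axes, for 4 control (blue) and 4 mito-supplemented (orange) libraries with their replicate numbers. The 3 libraries with red cell sums of 3466 CPM or more hold the 3 highest Hspa1 values, from 42.2 to 654 CPM, and the 3 controls with the lowest surface epithelium sums hold the lowest Hspb1 values.

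Hspa8, the constitutive HSP70 that folds new proteins and uncoats clathrin vesicles, stood at 215, 422, 343 and 238 CPM over controls 1 to 4 and at 301, 297, 378 and 225 CPM over mito-supplemented libraries 1 to 4. Control replicates 2 and 3 were again on the high side, but the whole range was 1.96-fold, and the control values enclosed those of the mito-supplemented group. Hsp90ab1, the constitutive HSP90, stood at 2075, 2287, 1722 and 2725 CPM in the controls and at 1792, 2472, 1936 and 2429.7 CPM in the mito-supplemented libraries. No library stood out, and the highest was 1.58 times the lowest. Log2 fold changes were -0.02 for Hspa8, with a 95% interval from -0.75 to 0.71, and -0.03 for Hsp90ab1, with an interval from -0.71 to 0.65, and the signs changed when single libraries were left out and with the scaling, to 0.31 for both genes with library size alone. The intervals leave room for differences in either direction up to their bounds. For Hspa8 33.0% of the stretches of 75 bases were shared, mostly with the annotated gene Gm15459, and for Hsp90ab1 0.537% were. The standard deviation of log2 CPM of Hspa8 exceeded that of 5.98% and that of Hsp90ab1 exceeded that of 1.20% of all genes tested.

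Hspd1 and Hspe1 encode the chaperonin and its lid that fold proteins in the mitochondrial matrix. They lie head to head at chr1:55077835-55088243 (minus strand) and chr1:55088132-55091307 (plus strand), and 112 bases of their first exons overlap, where reads cannot be assigned without strand. Of their stretches of 75 bases, 31.0% for Hspd1, mostly with the pseudogene Hspd1-ps3, and 14.6% for Hspe1 were shared with other genes. Hspd1 stood at 255, 199, 127 and 129.7 CPM over controls 1 to 4 and at 164, 125, 147 and 84.9 CPM over mito-supplemented libraries 1 to 4. Hspe1 stood at 46.4, 26.3, 21.2 and 21.3 CPM in the controls and at 31.3, 16.1, 34.7 and 20.4 CPM in the mito-supplemented libraries. Control replicate 1, the library with the most oocyte marker signal, was highest for both, and the groups overlapped. The log2 fold changes were -0.45 (95% interval from -1.23 to 0.34) for Hspd1 and -0.17 (95% interval from -1.10 to 0.76) for Hspe1. That of Hspd1 was -0.26 with library size alone, -0.20 when control replicate 1 was left out and -0.25 when mito-supplemented replicate 4 was. That of Hspe1 was 0.00999 with library size alone, 0.18 without control replicate 1, 0.00288 when mito-supplemented replicate 2 was left out and -0.32 when mito-supplemented replicate 3 was. Control replicate 3, which was high for the Hspa1 pair and Dnajb1, was among the lower libraries for both chaperonin genes.

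**Figure D3:**
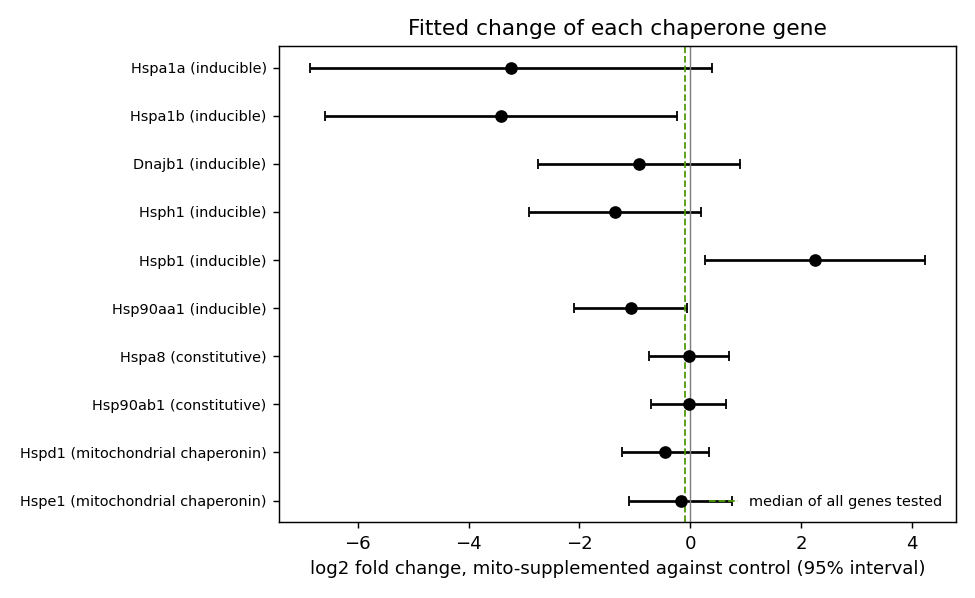
Log2 fold change of each chaperone gene in the mito-supplemented group against control (points) with its 95% interval (bars) from the fit over 8 libraries; the dashed line is the median of all genes tested, -0.10. The intervals of Hspa1a and Hspa1b are the widest, and those of Hspa8 and Hsp90ab1 are centred close to 0.

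All 10 members passed the filter on low counts. A gene was called when its adjusted p was under 0.05 and its change at least 2-fold, and none of the 10 was called by edgeR's quasi-likelihood test, which also called 0 of the 13873 genes tested (0.00%). The likelihood ratio test in edgeR called 0 members against 58 genes overall (0.418%), and DESeq2 called 0 members against 141 genes. At an unadjusted p under 0.05 in the quasi-likelihood test there were 3 members, Hspb1 on the higher side, where 5.31% of all genes passed, and Hspa1b and Hsp90aa1 on the lower side, where 2.40% did. That count changed with single libraries. Leaving out control replicate 2, control replicate 3 or mito-supplemented replicate 2 gave 0. Leaving out mito-supplemented replicate 3 or 4 gave 1, and leaving out control replicate 4 gave 5. The number over all genes, 1069 of 13873 with 8 libraries, changed as well. In the order named it was 803 of 14481, 885 of 14256, 572 of 14493, 783 of 14152, 636 of 14658 and 1863 of 14743. No member had CPM values that did not overlap between groups, a condition met by 5.03% of all genes. Fitted values were negative for 9 members and positive for 1, against 55.1% of all genes negative, and for 6 and 4 with library size alone, against 41.5% of all genes negative. With TMM factors the median log2 fold change was -0.69 over the members, -1.21 over the 6 inducible and -0.02 over the 2 constitutive genes, beside -0.10 over all genes. Without control replicate 2 these medians were -0.21, -0.39 and 0.0846, so the inducible genes stood much closer to the constitutive ones.

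The ratio of partner genes within a library does not depend on library scaling. Hspa1a plus Hspa1b relative to Hspa8 gave log2 ratios of counts of -7.55, 0.63, -0.64 and -6.06 over controls 1 to 4 and of -2.83, -4.55, -4.07 and -4.46 over mito-supplemented libraries 1 to 4. In control replicate 2 the inducible pair had more counts than Hspa8, at a ratio of 1.55, while in control replicate 1 Hspa8 had 187 times as many. The group means were -3.40 ± 4.01 (SD, n = 4) and -3.98 ± 0.79 (SD, n = 4), a difference of -0.57 that lay far within the spread of the controls. It turned to 0.77 without control replicate 2 and to 0.35 without control replicate 3, and was lowest, at -1.96, without control replicate 1. The fitted change of the pair was larger, as it compares mean levels, in which control replicates 2 and 3 weigh most.

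For Hsp90aa1 relative to Hsp90ab1 the log2 ratios were -1.37, -0.17, -0.71 and -2.67 over controls 1 to 4 and -1.45, -2.35, -1.99 and -2.54 over mito-supplemented libraries 1 to 4. Hsp90ab1 had the higher count in all 8 libraries, and control replicates 2 and 3 came closest to parity, although control replicate 4 had the lowest ratio of all. The means differed by -0.85, from -1.23 ± 1.08 (SD, n = 4) in control to -2.08 ± 0.48 (SD, n = 4), and leaving out control replicate 2 moved the difference to -0.50, control replicate 4 to -1.33. The mitochondrial pair varied least: Hspd1 relative to Hspe1 gave 2.46, 2.92, 2.58 and 2.60 in the controls and 2.39, 2.96, 2.08 and 2.05 in the mito-supplemented libraries. The difference of means of -0.27 compared with standard deviations of 0.20 and 0.42, and the groups overlapped through mito-supplemented replicate 2. Leaving that library out gave -0.47, while the value was -0.18 when control replicate 2 was left out, -0.17 for mito-supplemented replicate 3 and -0.16 for mito-supplemented replicate 4.

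**Figure D4:**
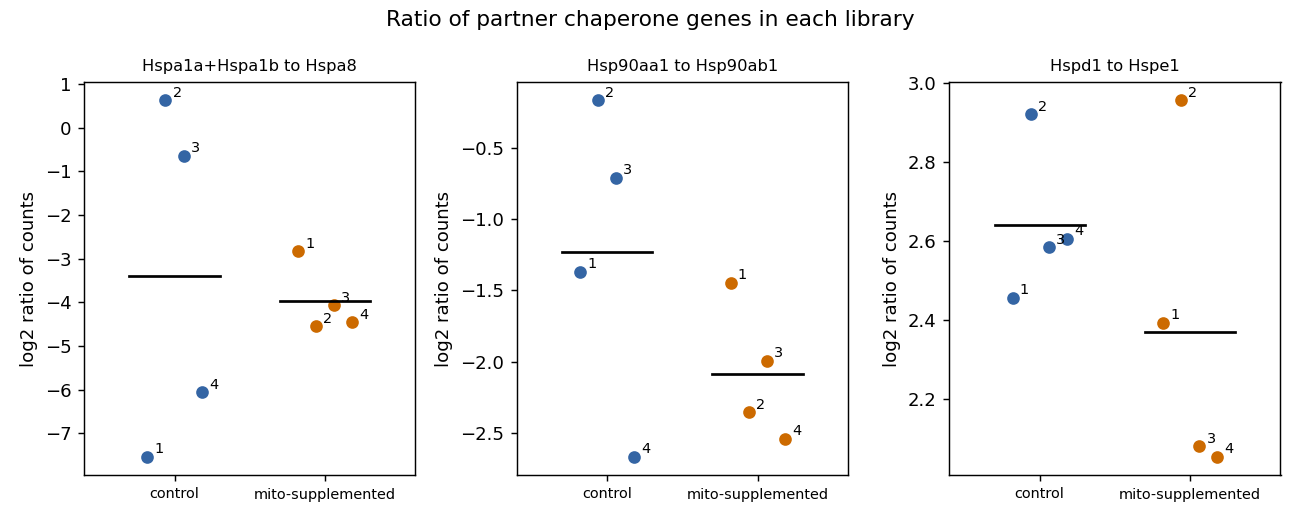
Log2 ratio of counts of partner genes in each control (blue) and mito-supplemented (orange) library, with replicate numbers and the group mean as a bar; the vertical scales differ between panels. The ratio of Hspa1a plus Hspa1b to Hspa8 runs from -7.55 to 0.63 among the controls and from -4.55 to -2.83 in the mito-supplemented group.

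Averaged on the log2 CPM scale, the 6 inducible genes differed from the 2 constitutive genes by -6.35, -2.31, -3.46 and -5.86 over controls 1 to 4 and by -3.74, -4.71, -4.69 and -5.0 over mito-supplemented libraries 1 to 4. Gaps in control replicates 2 and 3 were smaller, and in control replicates 1 and 4 larger, than in every mito-supplemented library. The control values therefore enclosed those of the other group. The smallest gaps were those of control replicates 2 and 3 and mito-supplemented replicate 1, which are the 3 libraries with high red cell and leukocyte markers. Slc4a1, the anion exchanger of red cells and the most abundant of those markers, stood at 2504, 1704 and 2998.5 CPM in them and at 4.06 to 47.6 CPM in the other 5. Of the 9 red cell markers listed, 6 were in the table and 4 had counts in every library, while the globin gene Hba-a1 had 5 counts in total. Among these 3 libraries Hspa1a plus Hspa1b still differed, from 42.2 CPM in mito-supplemented replicate 1 to 654 CPM in control replicate 2. With the 3 libraries left out, a choice made after seeing the data that leaves 2 controls and 3 mito-supplemented libraries, edgeR's quasi-likelihood test called 0 members. For Hspa1a, Hspa1b and Dnajb1 the direction in that fit is set by the choice itself, as the 2 controls kept lie below every mito-supplemented library. The 2 members at an unadjusted p under 0.05 were Hspa1b and Dnajb1, where 1576 of all 14568 genes in that fit passed. Hspb1 and Hsp90aa1 were not among these members, with log2 fold changes of 1.61 and -0.39. The parts of red cells and of leukocytes in these values were not tested.

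Across the 8 libraries, the genes whose log2 CPM was most like that of Hspa1a plus Hspa1b, among 7933 genes of sufficient level, were Cep57 (r = 0.99), Hnrnpa2b1 (r = 0.99), Susd1 (r = 0.98), Nde1 (r = 0.98) and Rnf19a (r = 0.97). Cep57 encodes a centrosomal protein and Hnrnpa2b1 an RNA-binding protein. Cep57 stood at 14.6, 110.3, 95.3 and 23.9 CPM over controls 1 to 4 and at 58.4, 30.5, 37.2 and 32.1 CPM over mito-supplemented libraries 1 to 4, which is the same order of high and low controls over a narrower range. Hnrnpa2b1 stood at 398, 1106, 1059 and 443 CPM in the controls and at 720.4, 554, 590.2 and 542 CPM in the other group. Of the members, Dnajb1 ranked 15 in likeness (r = 0.96) and the constitutive Hspa8 ranked 316 (r = 0.86), ahead of the inducible Hsp90aa1 at rank 1125 (r = 0.71) and Hsph1 at rank 1557 (r = 0.62), while Hspb1 had r = -0.13 and Hsp90ab1 r = -0.38. The libraries share their depth and composition in every gene, and these values describe likeness in 8 libraries only.

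The wider list of chaperones, cochaperones and heat shock factors held 91 genes, of which 90 were in the table and 85 passed the filter. None of the 85 was called by edgeR's quasi-likelihood test, its likelihood ratio test or DESeq2, and 0 had an unadjusted p under 0.05 in the quasi-likelihood test, beside 1069 of all genes. Fitted values were positive for 25 and negative for 60, with a median of -0.14 compared with -0.10 over all genes. Of all genes, 55.1% were negative. The balance depended on the scaling: with library size alone 53 were positive and 32 negative, where 41.5% of all genes were negative, with a median of 0.11 compared with 0.17 over all genes. It also depended on control replicate 1, without which 44 were positive and 41 negative, and 48.3% of all genes were negative. Hsf1, the main activator of the inducible genes, stood at 14.9, 23.2, 14.1 and 13.0 CPM over controls 1 to 4 and at 13.6, 25.8, 23.6 and 21.8 CPM over mito-supplemented libraries 1 to 4. It did not follow the Hspa1 pattern, since control replicate 3 was low and the log2 fold change was 0.38 (SE 0.40). Hsf2, a factor known for its role in germ cells, stood at 45.9, 16.3, 17.8 and 46.6 CPM in the controls and at 20.8, 26.0, 32.3 and 36.2 CPM in the other group. Here control replicates 2 and 3 and mito-supplemented replicate 1 were the 3 lowest libraries, the reverse of the order for Hspa1a and Hspa1b.

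Of the wider genes with the smallest unadjusted p, the 6 with positive fitted values included 3 small heat shock proteins, Cryab (1.90, SE 0.92), Hspb7 (2.78, SE 1.53) and Hspb8 (1.41, SE 0.79), given as log2 fold changes. All 3 were highest in mito-supplemented replicate 4, which also had the highest sum of smooth muscle markers, 360 CPM with Myh11 the most abundant, followed by control replicate 4 at 266 CPM and by 21.2 to 89.1 CPM in the other 6. Control replicate 4 was second for Hspb8, at 16.4 CPM, but not for Cryab or Hspb7. Of 9 small heat shock proteins listed, only 5 passed the filter on low counts. The median over these 5 was 1.41, falling to 0.71 without mito-supplemented replicate 4 and rising to 2.25 when control replicate 4 was left out. Hspb7 was scarce, with at most 28 counts in 7 libraries and 193 in mito-supplemented replicate 4. Hspa5, the HSP70 of the endoplasmic reticulum, stood at 185, 325.5, 264 and 257 CPM in the controls and at 361, 419, 612 and 289 CPM in the mito-supplemented libraries, where only mito-supplemented replicate 4 fell below a control; its log2 fold change was 0.71 (SE 0.34, edgeR quasi-likelihood adjusted p = 0.659). Fkbp5, an HSP90 cochaperone known as a glucocorticoid target, was at 0.85 (SE 0.46) and Hspa12a, a distant HSP70 relative, at 1.11 (SE 0.61) in log2 fold change. Over the 14 genes of the endoplasmic reticulum, 9 fitted values were positive and 5 negative, with a median of 0.26 that was 0.61 with library size alone, where 11 were positive, 0.11 without control replicate 2 and rose to 0.42 when mito-supplemented replicate 1 was left out.

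The 6 with negative fitted values were Cct2, Tcp1, Ahsa1, Dnaja3, Cacybp and Hspa4l. Cct2, a subunit of the cytosolic chaperonin TRiC that folds actin and tubulin, stood at 118, 98.4, 119 and 110.3 CPM over controls 1 to 4 and at 71.3, 79.3, 81.7 and 59.4 CPM over mito-supplemented libraries 1 to 4. It was the 1 gene of the 85 without overlap between groups, against 5.03% of all genes, and its log2 fold change of -0.61 (SE 0.28) had an adjusted p of 0.651 in edgeR's quasi-likelihood test. Tcp1, another TRiC subunit, was at -0.59 (SE 0.33), and 11 of the 13 TRiC and prefoldin genes tested had negative fitted values, with a median of -0.23, or 7 with library size alone and 6 without control replicate 1, beside the shares of all genes given above. Among 10 further mitochondrial chaperones and proteases all fitted values were negative, or 7 with library size alone, 5 without control replicate 1 and 7 when mito-supplemented replicate 4 was left out, with a median of -0.32 and the matrix J protein Dnaja3 at -0.81 (SE 0.50). Ahsa1, which stimulates the HSP90 ATPase, was at -0.79 (SE 0.45), Cacybp at -0.55 (SE 0.35) and Hspa4l, an HSP110 relative abundant in germ cells, at -1.05 (SE 0.71). Tcp1, Dnaja3 and Cacybp were highest in control replicate 1, the library with the most oocyte marker signal, at 245, 66.9 and 72.5 CPM.

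**Figure D5:**
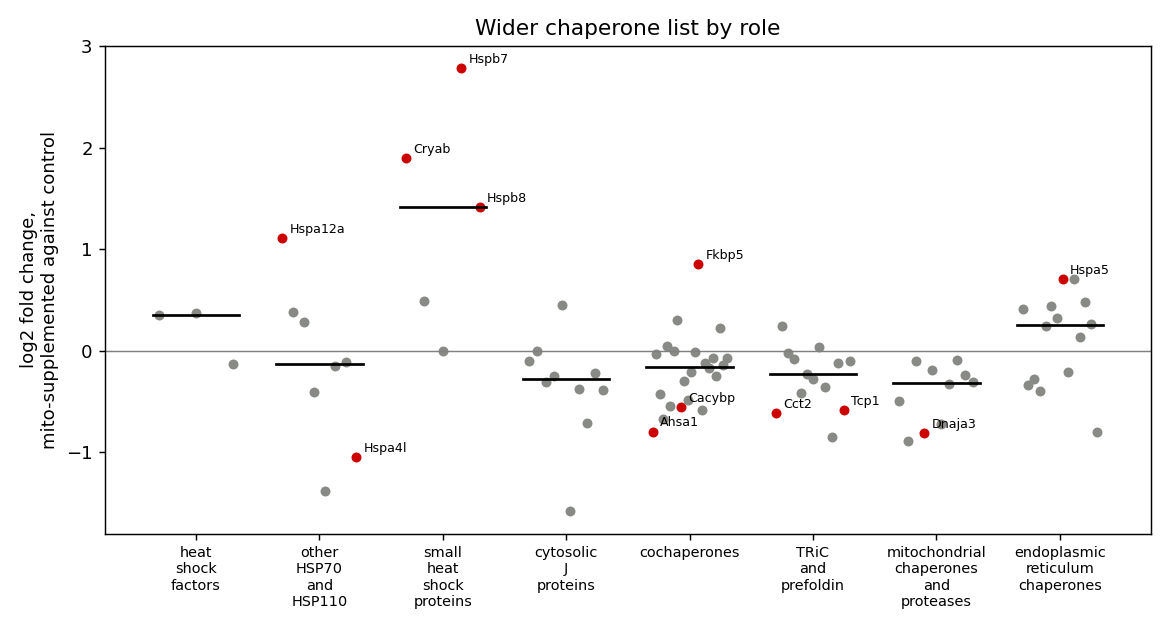
Log2 fold change, mito-supplemented against control, of the 85 wider chaperone genes tested, by role, with the median of each role as a bar and the 12 genes picked by smallest unadjusted p named in red. Small heat shock proteins have the highest median, 1.41 over the 5 of 9 listed genes that passed the filter, and none of the 85 genes was called.

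Immediate-early genes, which respond to stress and growth signals within minutes, shared the order of the Hspa1 pair among the controls as a sum, though not gene by gene, and differed from it in the mito-supplemented group. The sum stood at 274.5, 734, 699.5 and 409 CPM over controls 1 to 4 and at 947, 1463.5, 1902 and 3467 CPM over mito-supplemented libraries 1 to 4, where the Hspa1 pair was highest in replicate 1 and lowest in replicate 4. Fos stood at 10.3, 11.3, 43.3 and 13.4 CPM over controls 1 to 4 and at 63.6, 129, 213 and 292 CPM over mito-supplemented libraries 1 to 4, and Atf3 at 1.27, 7.29, 13.5 and 2.76 CPM against 45.1, 133, 69.0 and 192 CPM. Both genes were highest in mito-supplemented replicate 4, where Hspa1a was at 1.95 CPM and Hspa1b at 8.27 CPM. No control reached the mito-supplemented range of Fos or of Atf3. Egr1 likewise ran from 55.6 to 141 CPM in controls and from 206 to 1148 CPM in the mito-supplemented group. Jun overlapped between groups and kept the control order of the sum, at 27.7, 273, 129 and 92.0 CPM over controls 1 to 4. Of the 17 immediate-early genes tested, 6 had CPM values that did not overlap between groups, against 5.03% of all genes, all 6 higher in the mito-supplemented group, and 5 were called by edgeR's likelihood ratio test, against 0.418% of all genes, whereas its quasi-likelihood test called 0.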

How the data were processed

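Per the labels and the study's methods, the authors trimmed single reads of 75 bases with Trim Galore 0.4.4, aligned them to mm10 (GRCm38) with STAR 2.5.3a and deposited raw read counts per gene from featureCounts. Which annotation release was used, whether strand was used and how reads with several alignments were treated are not given in the sources used here. A control library that the authors set aside as an outlier was not analysed here. The members and lists were chosen with earlier results of these data known.

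Counts of 8 libraries were analysed in R 4.3.3 with edgeR 4.0.16 (filterByExpr defaults, TMM, quasi-likelihood test, no covariates) on all genes, with Benjamini-Hochberg adjustment over the 13873 genes tested. Each SE was back-calculated as the absolute log2 fold change divided by the square root of the quasi-likelihood F statistic. Intervals were built symmetrically from this SE with the quasi-likelihood degrees of freedom. Log2 CPM used a prior count of 2. No 2 libraries agreed within sampling noise (chi-square over degrees of freedom at least 50.0). The procedure was tested on simulated data that varied less between libraries than these data. That test does not show how many true changes would be found here. Gene lengths, overlaps and shared 75-base stretches came from GENCODE M21 (GRCm38), and promoters from RefSeq, taking the window nearest to the annotated start.

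Named genes were the 10 members, Hsf1 and Hsf2, the 6 higher and 6 lower wider chaperones with the smallest unadjusted p, the 5 genes most like Hspa1a plus Hspa1b with a mean log2 CPM of at least 3, Fos, Jun, Egr1 and Atf3, and the most abundant gene of each marker list. Stroma markers summed to 336 to 2480.3 CPM from lowest to highest library (Col3a1 most abundant). Alternatives were the edgeR likelihood ratio test, DESeq2 1.42.0, library size alone, ribosomal RNA genes left out, other count filters, a replicate block, counts summed by label prefix and each library left out, with 2 added after seeing the data, namely 3 libraries of high Slc4a1 left out and Hspa1a and Hspa1b summed.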

Additional observations from a re-analysis of the deposited data

Results flagged for a closer look

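Among 54 groups of 4 values examined, covering the members, the named wider chaperones, the heat shock factors and the partner ratios, 2 held a sample far from the others, while chance alone flags about 1 in 20 groups, or 2.7 here. Hspa12a was at 4.66 log2 CPM in mito-supplemented replicate 1, a library with high red cell and leukocyte markers, against 5.89 to 6.08 in the other 3 of that group. Ahsa1 was at 2.86 log2 CPM in mito-supplemented replicate 4 against 4.35 to 4.43 in the other 3. No group of member values held such a sample.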

How the results depend on the processing

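Members called and wider chaperones called stayed at 0 in all settings run, and when libraries were left out in turn. Genes called overall numbered 58 with the likelihood ratio test and 141 with DESeq2, against 0 in the other settings. Members at an unadjusted p under 0.05 ranged from 0 to 5 with 1 library left out, while the number over all genes ranged from 572 to 2003. Deviations of libraries with the same replicate number correlated at -0.24, -0.19, -0.33 and 0.22. These values show no common pairing by number but, with so few libraries, cannot exclude it. With the replicate block 1 member had an unadjusted p under 0.05 and 0 were called. In that fit the log2 fold changes were 0.0103 for Hspa8, -1.38 for Hspa1a, -0.83 for Hspa1b, -0.00564 for Dnajb1 and -0.76 for Hsph1. The median over the members was -0.29. Counts summed by label prefix leave 2 samples a group, and each sum of controls adds a low to a high Hspa1 control. With these sums 4 members had an unadjusted p under 0.05, and 0 were called. Hspa1b was at 0.000206 with an adjusted p of 0.656 in edgeR's quasi-likelihood test. The number of all genes at an unadjusted p under 0.05 was 1178 of 15705 with these sums and 981 of 13873 with the replicate block.

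Signs turned mainly for genes with values close to 0. Hspa8 was at 0.31 with library size alone, 0.00534 with ribosomal RNA genes left out, 0.00602 with at least 1 CPM in 4 samples, 0.0218 with no filter beyond 1 count and 0.43 without the 3 libraries of high Slc4a1, and ranged from -0.13 to 0.18 with 1 library left out. Hsp90ab1 was at 0.31 with library size alone, 0.0178 with no such filter and 0.19 with counts summed by label prefix, and ranged from -0.13 to 0.11. Hspe1 was at 0.00999 with library size alone and ranged from -0.32 to 0.18. Library size alone also moved the median of all genes from -0.10 to 0.17 and the number of negative wider chaperones from 60 to 32 of 85, which was 41 without control replicate 1. Dnajb1 ranged from -1.28 to 0.0715 and was at 1.70 without the 3 libraries, where Hspa1a was at 2.92 and Hspa1b at 2.64, an alternative added after seeing the data whose direction for these 3 genes is set by the libraries left out. Control replicate 4, with few counts outside ribosomal RNA, limits the depth for Hspa1a, Hspa1b and Hspb1. The causes were not tested.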
